A study of Homo sapiens with 7 samples.

Results

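The peak list of the H3K9me3 ChIP-Seq library of HepG2 held 34534 peaks, out of 319086 peaks listed for 5 histone marks. Every peak of the list was taken, with no selection by height or place. Peaks were counted in each locus of the expression table that carries a gene symbol, over the span of the locus and 10 kb on each side, and in windows of 100 kb along the genome. Each count was also divided by the number of mapped nucleosome positions in the same stretch, and is then given as peaks per 100 positions. HepG2 is a human liver cancer cell line that makes many proteins of the hepatocyte. The series holds 7 samples of freshly cultured HepG2 cells, 1 library per assay: native micrococcal nuclease sequencing for nucleosome positions, ChIP-Seq of H3K9me3, H3K27me3, H3K4me3, H3K9ac and H3K27ac on crosslinked and sonicated chromatin, and RNA-Seq after removal of ribosomal RNA. For H3K9me3 the labels name antibodies of 2 makers, Abcam and Active Motif, without saying which of them gave the listed peaks.

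H3K9me3 is trimethylation of lysine 9 of histone H3. It is written by enzymes such as SUV39H1, SUV39H2 and SETDB1, the last of which is brought to its targets by TRIM28 and KRAB zinc finger proteins, and it is bound by the HP1 proteins CBX1, CBX3 and CBX5. It is best known from the compact chromatin around centromeres, from silenced transposable elements, and from the gene bodies of zinc finger gene clusters. H3K27me3, the other repressive mark of the series, is laid down by Polycomb complexes and is the most alike of the other marks in number of peaks.

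There was no replicate of any library, so no test across samples was made and no p-value is given. Intervals in brackets are exact 95% Clopper-Pearson intervals, which cover counting error only. A peak of the list has no height or fold, so the depth behind it is unknown. Expression is given as FPKM in the 2 columns of the table, called run 1 and run 2, and loci are called expressed at a mean of 1 or more and silent under 0.1. All 10 markers of HepG2 were expressed, from 14.0 FPKM for FOXA2 to 10010.7 FPKM for ALB, while the markers of blood, stroma, vessel and neural cells lay between 0 and 1.49 FPKM, with SYP alone above 1. Of 23 genes that write, bind or remove H3K9 methylation, 22 were expressed, against 54.3% of all named loci. The values were 73.2 FPKM for TRIM28, 172 FPKM for CBX3, 8.25 FPKM for SETDB1 and 4.22 FPKM for SUV39H1. KDM4D, a demethylase gene, was the exception at 0.606 FPKM.

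Few gene starts were covered, and few positions were marked anywhere in the map. Among 14192 loci that hold a single row of the table, 33 (0.233%) carried an H3K9me3 peak with its midpoint between 250 bp upstream and 50 bp downstream of the listed start. Over the whole map 0.243% of single nucleosome positions were marked. This is a share of positions and not of loci, so it cannot be set against the 0.233%. Of these 33 loci, 28 (84.8%) were silent and 1, SNRPN, was expressed, whereas 40.8% of all single-row loci were silent and 48.5% expressed. The stretch at the listed start of SNRPN held no peak of H3K4me3, H3K9ac or H3K27ac, and whether this start was in use was not tested. H3K27me3 lay in the same stretch at 10 of the 33 (30.3%, 15.6 to 48.7) and at 1.42% of all single-row loci, and H3K4me3 at 3 (9.09%, 1.92 to 24.3) and at 20.5%. The promoter table of RefSeq (GRCh38.p14) held 24 of the 33 genes. To show what such starts look like, the 250 bases upstream of the start are printed for the 4 of them whose hg19 span and RefSeq gene length differ by at most 20 bases, with each CG dinucleotide in capitals, the base pair step at which human DNA is methylated.
CDC14C: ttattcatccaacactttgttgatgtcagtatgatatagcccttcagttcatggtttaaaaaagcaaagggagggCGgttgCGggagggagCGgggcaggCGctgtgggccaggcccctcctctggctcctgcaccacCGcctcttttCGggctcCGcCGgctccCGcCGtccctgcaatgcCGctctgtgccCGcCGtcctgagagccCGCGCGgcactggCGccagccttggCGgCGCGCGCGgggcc
IL26: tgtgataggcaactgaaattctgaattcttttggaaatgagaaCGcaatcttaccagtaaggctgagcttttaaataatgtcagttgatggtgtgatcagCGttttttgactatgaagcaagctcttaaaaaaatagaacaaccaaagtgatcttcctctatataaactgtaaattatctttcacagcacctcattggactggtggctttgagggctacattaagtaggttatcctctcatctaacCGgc
LCE3D: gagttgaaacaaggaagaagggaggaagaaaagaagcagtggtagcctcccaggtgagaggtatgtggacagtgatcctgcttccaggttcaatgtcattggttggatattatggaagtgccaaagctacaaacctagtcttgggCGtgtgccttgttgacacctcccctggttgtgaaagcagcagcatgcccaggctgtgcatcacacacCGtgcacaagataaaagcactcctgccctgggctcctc
SCGB2A1: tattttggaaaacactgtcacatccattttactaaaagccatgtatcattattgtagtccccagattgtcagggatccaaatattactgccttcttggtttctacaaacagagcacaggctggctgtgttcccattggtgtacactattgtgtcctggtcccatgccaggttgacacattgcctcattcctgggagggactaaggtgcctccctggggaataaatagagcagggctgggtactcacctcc

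In GRCh38.p14 the printed stretches are chr7:48924297-48924546 on the + strand for CDC14C, chr12:68225811-68226060 on the - strand for IL26, chr1:152580517-152580766 on the - strand for LCE3D and chr11:62208423-62208672 on the + strand for SCGB2A1. The peaks themselves are listed in hg19, and no position was converted between the builds. IL26, a cytokine gene, and SCGB2A1, a gene for a secreted epithelial protein, were listed at 0 FPKM in both runs and had a peak whose midpoint lay 40 and 12 bp downstream of the start, at chr12:68619462-68619601 and chr11:61976082-61976221. In LCE3D, a gene of the cornified envelope of the skin that was also listed at 0, the midpoint of the peak was at -191 bp, upstream of the start, at chr1:152553102-152553241. In CDC14C, a retrocopy of a phosphatase gene with 0.0779 and 0.0706 FPKM, it was at -115 bp, at chr7:48963972-48964111.
The 4 stretches differed widely in CG, with 22 in CDC14C, 3 in IL26, 2 in LCE3D and 0 in SCGB2A1. Over the 24 genes the median was 8.5 CG per 250 bases, from 0 to 33, against 17 in the 8952 other single-row loci with a sequence and 11 in all 27305 promoters of the table. At least 1 CG, counted on the printed strand and the same on both strands, was present in 21 of the 24 (87.5%) and in 93.6% of the table.

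Starts with several peaks were few. CHRM3, the gene of a muscarinic acetylcholine receptor, had 3 peaks in the stretch, with midpoints at -240, -128 and 45 bp from the start, and the middle of the 3 also carried H3K27me3. CHRM3 had 0.289 and 0.355 FPKM, and 19 peaks over its locus and flanks. KIF2B, a kinesin gene, and GSX1, a homeobox gene, had 2 each and were listed at 0 FPKM. In KIF2B a further peak lay 148 bp inside the gene, so that the midpoints of all 3 peaks of the locus were within 148 bp of its start.

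Most named loci carried no peak. Of 17342 named loci, 5228 had at least 1 H3K9me3 peak in their span and flanks (30.1%), 563 had at least 5 (3.25%) and 145 had at least 10 (0.836%). The mark was sparser at named loci than over the genome: the loci held 0.159 peaks per 100 positions, whereas 0.243% of all positions were marked. Within 10 kb of a named locus lay 12349 peaks, 35.8% of the list (35.3 to 36.3), against 52.7% of all nucleosome positions. For H3K27me3 the share near named loci was 46.1% (45.5 to 46.8), and for H3K4me3 it was 91.2%. Long loci had more peaks, with a Spearman rho of 0.44 between the count and the span over the 17342 loci, a description of loci that share a single library.

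The 10 loci with the most peaks were long and had little or no expression. CNTNAP2, a cell adhesion gene of the neurexin family, had 87 peaks over 2305 kb on chromosome 7, or 0.757 per 100 positions, with 0.493 FPKM in run 1 and 1.36 in run 2. The joint locus of BEND5 and AGBL4, the latter a carboxypeptidase gene, had 64 peaks over 1491 kb on chromosome 1, with 0 and 0.161 FPKM for BEND5. NRG3, which encodes a ligand of the ERBB4 receptor, had 61 peaks over 1112 kb on chromosome 10 and was listed at 0 FPKM in both runs. At 1.08 peaks per 100 positions, NRG3 was the densest of the 10. The other 7 had between 33 and 41 peaks and at most 0.077 FPKM in either run. They were CSMD1 (41), a membrane protein gene of the complement control type, SNTG1 (39), a syntrophin gene, GRM7 (39), a glutamate receptor gene, PTPRD (36), a receptor phosphatase gene, DGKB (33), a diacylglycerol kinase gene, DSCAM (33), an adhesion molecule gene, and NRXN3 (33), a neurexin gene.

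H3K27me3 was unevenly present in the same loci. CSMD1 had 47 H3K27me3 peaks beside its 41 of H3K9me3, CNTNAP2 had 17 beside 87, and NRG3, SNTG1 and DGKB had 1 each beside 61, 39 and 33. The place of the peaks along the gene was examined in 4 of these loci and differed between them. With the span cut into 10 equal parts, each part of NRG3 held between 2 and 13 peaks and each part of GRM7 between 2 and 7, with median distances of 11.4 and 16.8 kb from peak to peak. In CNTNAP2, read in the direction of its RefSeq strand, the first 5 parts held 12, 12, 12, 9 and 14 peaks and the last 5 held 9, 8, 5, 0 and 6, on 1079 to 1192 positions per part. The first 5 parts of CNTNAP2 thus held 59 of its 87 peaks (67.8%, 56.9 to 77.4). The joint locus of BEND5 and AGBL4, read from the minus strand, held 48 of 64 (75%, 62.6 to 85.0) in its first 5 parts and 0 in the last part, whereas the first 5 parts of GRM7 held 19 of the 38 peaks in its span and those of NRG3 23 of 60. The longest stretch of CNTNAP2 without a peak was 275 kb. Neighbouring peaks within a locus are not independent of each other, so the intervals for parts of a locus are too narrow.

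The densest loci were short. Among loci with at least 50 positions, the 10 with most peaks per 100 positions ranged from 3.57 to 6.41, and 9 of them were listed at 0 FPKM in both runs. TTTY5, a noncoding gene of chromosome Y, came first with 5 peaks on 78 positions. LOC100134317 on chromosome 19 followed with 3 peaks on 56 positions. These rates rest on few positions, and most of the peaks lay in the flanks: TTTY5 had 1 peak and LOC100134317 had 0 in the span itself. POM121L12 on chromosome 7 differed in this respect, since all 4 of its peaks lay inside a span of 1.27 kb, between 158 and 793 bp from its start. Hair keratin-associated genes of chromosome 21 took 3 of the 10 places. KRTAP6-1 had 5 peaks on 105 positions, and KRTAP22-1 and KRTAP6-2 had 4 each on 94, and since these genes are close neighbours their flanks overlap and share peaks. POTED, an ankyrin repeat gene next to the centromere of chromosome 21, had 7 peaks on 170 positions, all of them outside its span. RBMY2EP on chromosome Y had 4 peaks on 85 positions, LOC644669 on chromosome 18 had 5 on 138, and OR6F1, an olfactory receptor gene of chromosome 1, had 4 on 112. LOC644669 had 0.023 and 0.027 FPKM. Several of these genes have near-identical copies elsewhere, so the reads behind their peaks and FPKM values could have been shared between copies; this was not tested.

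Loci with more peaks were less often expressed. Of all named loci 54.3% were expressed, and of the 12114 loci without a peak 55.6% (54.7 to 56.5) were, with a median of 2.72 FPKM. Loci with 1 peak were much like these, at 55.3% (53.4 to 57.1) and 2.50 FPKM. The share was 50.4% (48.1 to 52.7) at 2 to 4 peaks, 39.5% (34.8 to 44.3) at 5 to 9, 24.3% (16.4 to 33.7) at 10 to 19, and 9.52% (2.66 to 22.6) at 20 or more, where 4 of 42 loci were expressed and the median was 0.0099 FPKM. Among the 563 loci with at least 5 peaks, 194 were expressed, or 34.5% (30.5 to 38.6). Sorted by peaks per 100 positions instead, the share was 65.5% (63.4 to 67.6) in 2019 loci with a rate above 0 and up to 0.25, and 7.37% (3.01 to 14.6) in 95 loci above 2. The low nonzero class, in which the median span was 158 kb, thus lay above the loci without a peak, whose median span was 20.3 kb. Over the 5228 loci with a peak, Spearman's rho between peaks per 100 positions and FPKM was -0.32, and over all 17312 loci with at least 1 position it was -0.09, both as descriptions across loci.

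**Figure D1:**
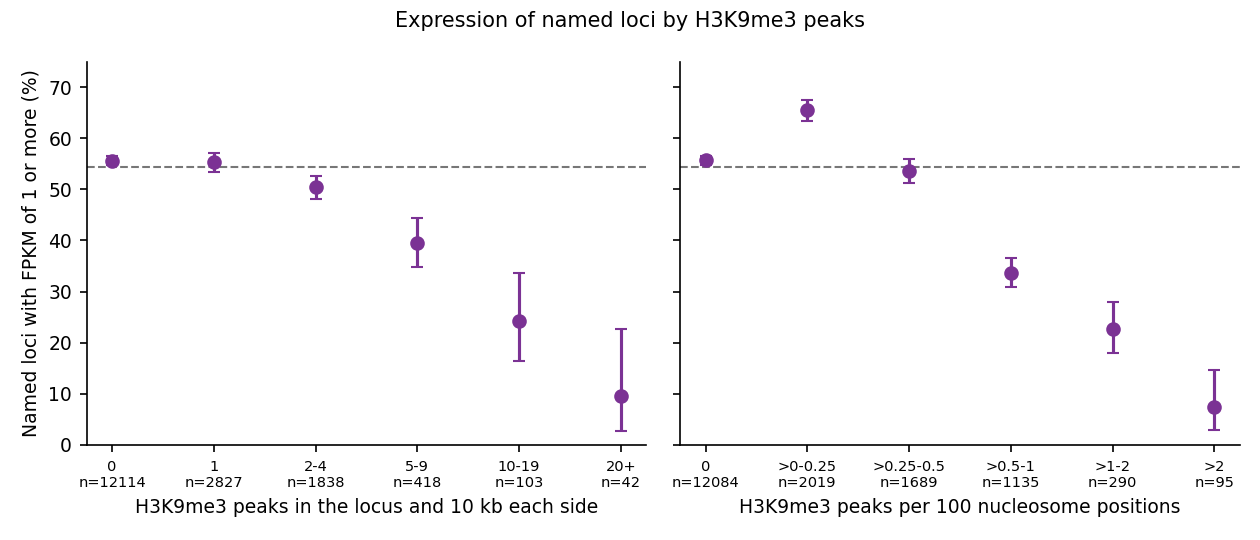
Share of named loci with a mean FPKM of 1 or more (vertical axis, %) by H3K9me3 peak count (left) and by peaks per 100 nucleosome positions (right), with exact 95% intervals, the number of loci (n) under each class, and the share over all named loci (54.3%) as a dashed line. The share was close to the line at 0 and 1 peak and lowest, at 9.52% and 7.37%, in the last class on each side.

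The difference was present in every class of span. Under 20 kb, silent loci had 0.19 peaks per 100 positions and expressed loci 0.0713. From 20 to 100 kb the rates were 0.191 and 0.0925, and from 100 to 500 kb they were 0.223 and 0.126. At 500 kb or more, 154 silent loci had 0.301 and 122 expressed loci 0.169. Both groups had higher rates at longer spans, and silent loci had between 1.77 and 2.67 times the rate of expressed loci of like span. Nearly every locus of 500 kb or more held a peak, 97.4% of the silent and 93.4% of the expressed.

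Loci with both many peaks and high expression were mostly joint loci. The table gives overlapping genes 1 joint span, and 3150 of the 17342 named loci are of this kind, so that a peak in them cannot be given to a single gene. The most expressed locus with at least 10 peaks was that of AIMP1, a scaffold of the aminoacyl-tRNA synthetase complex, and TBCK, with 13 peaks. AIMP1 had 47.3 and 47.1 FPKM and TBCK 11.9 and 12.5. The locus of C3orf26, FILIP1L and COL8A1 had 11 peaks and spans genes at 29.4 and 44.9 FPKM (C3orf26), 4.5 in both runs (FILIP1L) and 0.143 and 0.0716 (COL8A1). PHF3 and EYS share 2071 kb with 25 peaks, where PHF3 had 25.3 and 24.9 FPKM and EYS, a photoreceptor gene, 0.537 and 0.674. In each of these loci the genes differed in expression, and the counts hold for the locus alone. The loci led by C18orf10 (14 peaks), C4orf43 (13) and WNK1 (11), a kinase gene, were joint as well, with 25.5, 21.8 and 16.0 FPKM for the named gene as a mean of both runs.

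Among loci that hold a single row of the table, 9 of 94 with at least 10 peaks were expressed, or 9.57% (4.47 to 17.4), against 48.5% of all single-row loci. Of these 9, the locus of AKAP2 and PALM2 lists several symbols in its row. The highest was ITPR2, a calcium channel gene of the endoplasmic reticulum, with 12 peaks and 20.3 and 20.9 FPKM. AIM1 had 10 peaks with 18.9 and 19.4 FPKM. A further 3 loci were named after their values were seen. SPAG16, a gene of the sperm flagellum, had 32 peaks over 1126 kb with 14.2 FPKM in both runs, and each of its 10 parts held between 1 and 6 peaks. MGMT, a DNA repair gene, had 10 peaks with 17.8 and 13.6 FPKM, and FHIT, a gene at a fragile site, had 18 with 10.2 and 8.03. ITPR2 and AIM1 also carried 36 and 27 H3K27ac peaks, and SPAG16 carried 2.

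Other marks differed between loci rich in H3K9me3 and the rest. H3K27me3 was present at 86.1% (83.0 to 88.9) of the 563 loci with at least 5 H3K9me3 peaks and at 30.5% of all named loci, but per 100 positions the rates were closer, 0.221 and 0.162. H3K4me3 was present at 62.0% against 70.2%, H3K9ac at 64.7% against 70.2%, and H3K27ac at 47.4% against 63.6%. Per 100 positions these 3 marks were lower by larger factors, with 0.18 against 1.26 for H3K4me3, 0.161 against 1.08 for H3K9ac and 0.273 against 1.19 for H3K27ac. The loci with at least 5 peaks had a median span of 419 kb and all loci 29.4 kb. In expressed single-row loci, H3K4me3, H3K9ac or H3K27ac marked 45.6% of positions in the first 2 kb. From 20 to 50 kb downstream of the start the share was 2.29%, so rates per 100 positions of these marks also depend on span. The part of span in the shares of loci with a mark and in the rates was not tested.

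Around gene starts H3K9me3 was lowest just upstream of expressed genes. Over 6889 expressed single-row loci, 0.024% of positions in the 2 kb upstream of the start were marked (0.0137 to 0.039), against 0.136% from 20 to 50 kb upstream. In 5790 silent loci the corresponding values were 0.207% (0.171 to 0.249) and 0.232%, so that the difference between silent and expressed loci was 8.65-fold next to the start and 1.70-fold far from it. Distances downstream were counted on past the end of short loci. The first 2 kb downstream of the start stood above the next 3 kb in both groups, at 0.109% against 0.0366% in expressed loci and 0.277% against 0.15% in silent loci. H3K27me3 was much higher there in silent loci, at 1.95% of positions, and reached 0.162% in expressed loci.

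**Figure D2:**
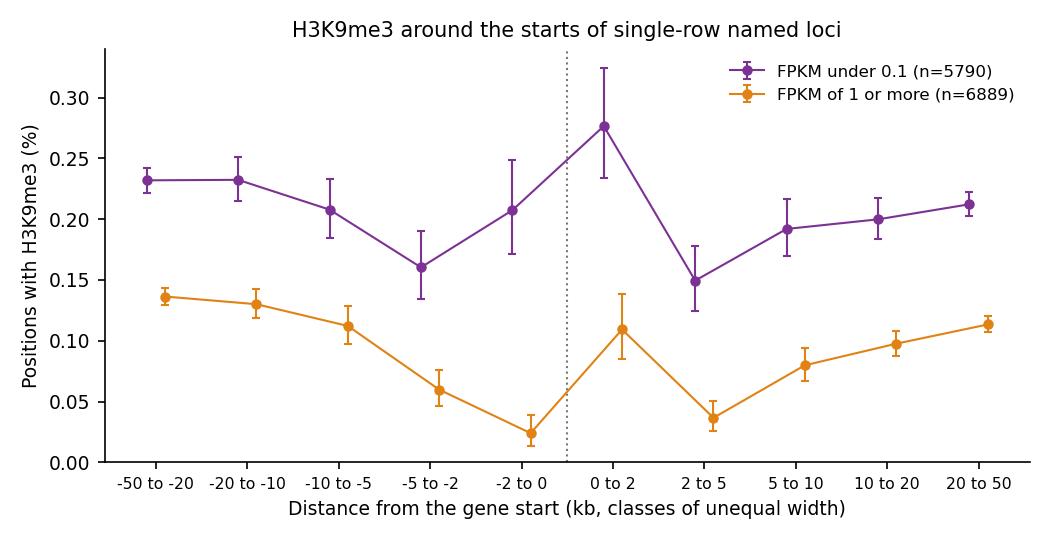
Share of nucleosome positions with an H3K9me3 peak (vertical axis, %) by distance from the gene start in kb (horizontal axis, classes of unequal width, negative values upstream), for 5790 silent and 6889 expressed single-row loci, with exact 95% intervals. The silent loci lie above the expressed ones in every class, and the expressed loci have their lowest value, 0.024%, in the 2 kb upstream; loci between 0.1 and 1 FPKM are not drawn.

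The peaks just downstream of the starts of expressed genes differed from the rest in the marks they shared a position with. There were 68 such peaks in the first 2 kb of 57 expressed loci, and 59 of them (86.8%, 76.4 to 93.8) also carried H3K4me3, H3K9ac or H3K27ac, whereas 45.6% of all positions in the same stretch did. In the first 2 kb of silent loci 1 of 151 peaks did (0.662%, 0.0168 to 3.63), against 1.95% of all positions there. Over the whole list the share was 306 of 34534 (0.886%), against 1.02% of all positions of the map. SLC38A2, an amino acid transporter gene with 230 and 237 FPKM, had 3 peaks between 621 and 956 bp from its start, all with the 3 activation marks. The imprinted gene MKRN3, with 1.44 and 1.77 FPKM, also had 3, of which 2 carried all 3 activation marks and 1 carried H3K4me3 without the acetylations, whereas TAF7, a gene of the general transcription machinery with 50.8 and 49.5 FPKM, had 3 peaks from 1300 to 1600 bp with no activation mark. IGFBP1, a gene for a secreted protein that binds insulin-like growth factors, named after its values were seen, had 52.9 and 56.8 FPKM and 5 peaks, of which 4 lay between 1874 and 2969 bp from the start and carried all 3 activation marks.

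Zinc finger genes, many of which encode KRAB zinc finger proteins, were covered more often than other genes. Of 516 zinc finger loci, 198 (38.4%, 34.2 to 42.7) had at least 1 peak, and 13 (2.52%, 1.35 to 4.27) had at least 5. The share with at least 1 peak was above the 30.1% of all named loci, and the share with at least 5 was near their 3.25%, which lies inside its interval. With flanks of 20 kb the shares with at least 5 peaks were 4.65% of zinc finger loci and 3.85% of all named loci. In loci of like span, 10 to 60 kb, 35.8% of zinc finger loci (30.9 to 41.0) and 19.2% of other loci (18.3 to 20.1) had a peak. On chromosome 19, loci of this span had a peak in 75 of 171 zinc finger loci (43.9%, 36.3 to 51.6) and in 49 of 542 other loci (9.04%, 6.76 to 11.8). On the other chromosomes the shares were 55 of 192 (28.6%, 22.4 to 35.6) and 1322 of 6611 (20%, 19.04 to 20.98). Over all spans the zinc finger loci of chromosome 19, with a median span of 24.3 kb, had 0.279 peaks per 100 positions, and its other loci, with a median of 13.5 kb, had 0.0666. Most zinc finger genes were expressed, 409 of 547 with a value, against 54.3% of all named loci. A peak was present at 36.4% of the expressed and 44.9% of the other zinc finger loci.

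Within zinc finger loci the peaks lay more often toward the end of the gene. The part downstream of the middle of the span held 161 peaks and the upstream part 111, so 59.2% were downstream (53.1 to 65.1), against 49.8% in all other loci (48.8 to 50.7) and 52.7% in other loci of 10 to 60 kb (49.7 to 55.7). Expressed zinc finger loci alone gave 59.8% (52.0 to 67.2). Peaks in a run are not independent of each other, so these intervals are too narrow. The zinc finger loci with most peaks were the joint locus of ZNF595 and ZNF718 on chromosome 4 (12 peaks, 0.0982 and 0.098 FPKM), ZNF385D on chromosome 3 (10 peaks, 0.087 and 0.0728 FPKM) and the locus of ZNF829 and ZNF568 on chromosome 19 (8 peaks on 664 positions, 0.338 and 0.312 FPKM). All 3 were below 1 FPKM.

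Of the gene lists, clustered protocadherins and olfactory receptors had the highest rates. Of 385 genes for olfactory receptors, the receptors of smell, 1 was expressed, against 54.3% of all named loci. Olfactory receptor loci had 0.432 peaks per 100 positions over 355 loci. A peak was present at 31.5% of these loci (26.8 to 36.7), near the 30.1% of all named loci. They were short, with a median span of 0.951 kb, and of silent loci under 20 kb 17.45% had a peak. The joint locus of OR2L13 on chromosome 1 had 14 peaks on 870 positions, that of OR8U1 on chromosome 11 had 13 on 1883, and OR10J1 on chromosome 1 had 9 on 702. All 3 were listed at 0 FPKM in both runs. The clustered protocadherins, adhesion genes of chromosome 5 with variable first exons, formed 8 loci in the table, of which 7 had a peak. Summed over these loci 19 peaks lay on 3521 positions, or 0.54 per 100, with shared flanks counted more than once. Their alpha cluster had 6 peaks with 0.809 and 0.584 FPKM, the large joint locus of the beta cluster had 5 with at most 3.22 FPKM, and PCDHB12 had 2. The gamma cluster was the exception, with 1 peak on 1023 positions, or 0.0978 per 100, which is below the 0.159 of all named loci, and 4.99 and 5.05 FPKM. The FPKM of these joint rows covers several genes that share sequence.

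Keratin and keratin-associated genes had 0.302 peaks per 100 positions over 123 loci, 26.0% (18.5 to 34.7) of which had a peak. Cancer-testis genes, which are silent in most tissues outside the germ line, had a peak at 11 of 81 loci (13.6%, 6.98 to 23). This was below the 30.1% of all named loci, which were longer, with a median span of 29.4 kb against 6.99 kb. Among silent loci under 20 kb, 17.45% had a peak, which lies inside the interval. The rate of cancer-testis loci, 0.263 per 100 positions, was above that of all loci. Summed over the 81 loci there were 5334 positions, with any overlap of flanks counted again. Of 81 cancer-testis genes 1 was expressed, against 54.3% of all named loci. PRAMEF6, MAGEC2 and MAGEB6 had 2 peaks each. Of 20 other germline genes 10 had a peak (50%, 27.2 to 72.8), against 30.1% of all named loci. The germline loci had a median span of 68.4 kb and 0.184 peaks per 100 positions, against 29.4 kb and 0.159 for all loci. STK31 and TDRD9 had 4 peaks each while listed at 0 FPKM. HORMAD1, a meiosis gene also listed at 0, had 2.

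No H3K9me3 peak was listed at HOX genes, which set the body plan in the embryo. None of the 21 HOX loci carried a peak. Summed over the loci there were 4193 positions, but neighbouring loci share flanks, so some positions were counted more than once. On 4193 distinct positions a count of 0 would allow up to 0.0715% of positions, and on fewer the limit is higher. HOX genes had a median of 0.0104 FPKM. Imprinted genes, which are expressed from 1 parental copy, had a peak at 15 of 27 loci (55.6%, 35.3 to 74.5), against 30.1% of all named loci. The imprinted loci had a median span of 59.35 kb and 0.23 peaks per 100 positions, against 29.4 kb and 0.159 for all loci. HERC3, whose locus contains the imprinted NAP1L5, had 8 peaks with 3.62 and 3.25 FPKM, TRAPPC9 had 6 with 2.70 and 2.56, and SNRPN had 7 with 68.9 and 75.7. In SNRPN the peaks lay at 43 bp and then at 32903 to 132318 bp from the listed start, and the last of them carried H3K4me3, H3K9ac and H3K27ac. DIRAS3, named after its values were seen, had 4 peaks on 128 positions and 0.0575 and 0 FPKM, of which 2, at -856 and -961 bp from the start, were shared with H3K27me3. H19, IGF2, MEG3, DLK1 and PEG10 had 0 peaks.

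Several other lists had shares near the 30.1% of all named loci, among them the liver plasma protein, cytochrome P450 and solute carrier loci and the genes that act on H3K9 methylation. Of 30 liver plasma protein loci 10 had a peak (33.3%, 17.3 to 52.8), never more than 2, and ALB, AFP and FGB, with 9933, 3732 and 57.0 FPKM in run 1, had 2 each. These loci had 0.169 peaks per 100 positions. The 10 HepG2 marker loci, which include ALB, AFP and FGB, had 7 peaks on 2111 positions, or 0.332 per 100. The rate of all named loci was 0.159. Ribosomal protein loci had a peak at 13 of 79 (16.5%, 9.06 to 26.5). Among them RPL39L had 3 peaks on 207 positions, RPL10L, a retrocopy listed at 0 FPKM, had 2 on 94, and the joint locus of RPL35A, at 784 and 788 FPKM, had 3 on 966. Cytochrome P450 loci had a peak at 19 of 54 (35.2%), led by CYP7B1 with 5 and 0.19 and 0.156 FPKM. Solute carrier loci had a peak at 116 of 358 (32.4%). The solute carrier locus with the highest rate among those with most peaks was SLCO1B3, a bile acid and drug uptake transporter of the liver, with 8 peaks on 625 positions and 0.497 and 0.273 FPKM. SLC16A7, a monocarboxylate transporter, had 8 peaks on 1050 positions and 2.51 and 2.56 FPKM. Histone genes had 18 peaks at 17 of 57 loci, and taste and vomeronasal receptor genes 13 peaks at 8 of 19 loci. Among the genes that act on H3K9 methylation 9 of 23 loci had a peak, with 6 in KDM4C and 4 in the joint locus of PHF11 and SETDB2, and 0 in SETDB1, TRIM28 and all 3 HP1 genes.

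**Figure D3:**
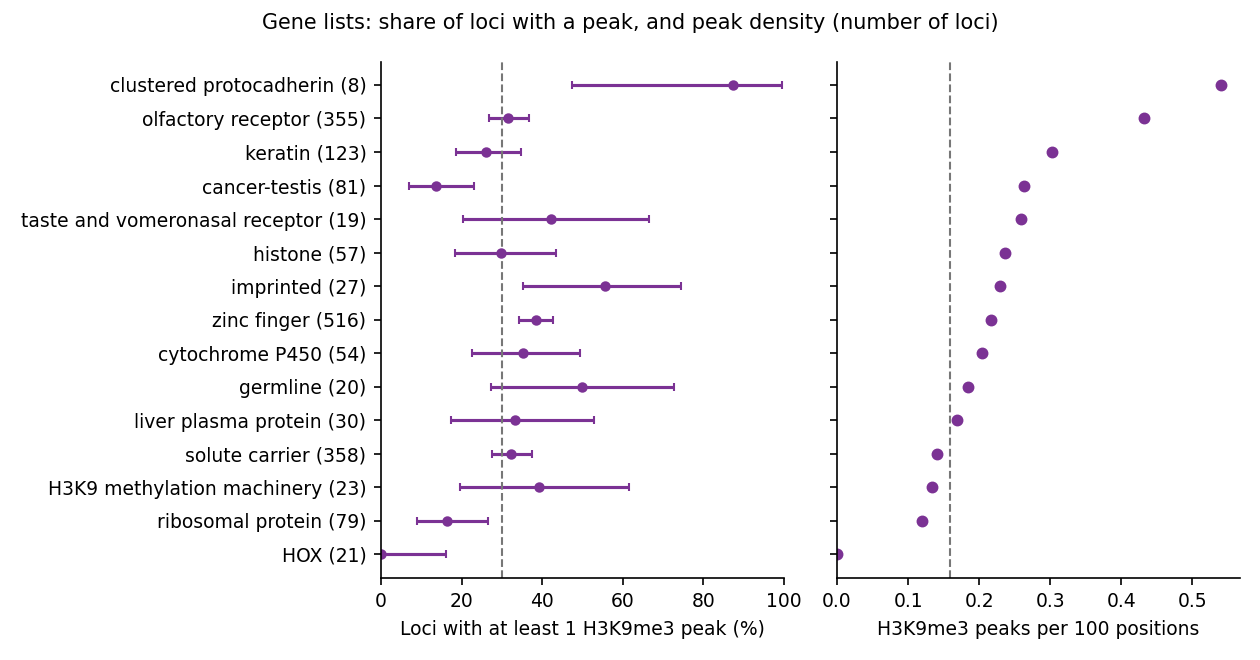
Left, share of loci with at least 1 H3K9me3 peak (%) in each gene list, with exact 95% intervals and the share of all named loci (30.1%) as a dashed line; right, peaks per 100 nucleosome positions over the list, with the value over all named loci (0.159) as a dashed line. The number of loci stands behind each name, and the lists of HepG2 markers and other cell type markers are not drawn. Protocadherins and olfactory receptors lie furthest right in rate, HOX loci at 0.

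Stretches without named genes were denser in the mark than those with them. Of 28732 windows of 100 kb with a nucleosome position, 9875 had no named locus, and these windows, with 33.3% of all positions, held 17273 peaks, 50.02% of the list, at 0.365 per 100 positions. With 1 named locus the rate was 0.21, with 2 to 3 it was 0.14, and with 4 or more it was 0.0897. H3K27me3 varied less over the same classes, from 0.194 to 0.15. Windows with named loci of which none was expressed had 0.263 peaks per 100 positions, those with an expressed locus 0.135.

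Peaks were spread over many windows. At least 1 peak lay in 56.3% of windows, with a mean of 1.20 and a variance of 2.11 times the mean, against 1.92 times for H3K27me3 and 10.7 for H3K4me3. The densest 1% of windows held 7.23% of H3K9me3 peaks, 7.51% of H3K27me3 peaks and 10.4% of H3K4me3 peaks. Of 1306 windows with at least 5 H3K9me3 peaks, 900 (68.9%) had no named locus and 91 (6.97%) had an expressed one. Among the 59 windows with at least 10 peaks, 48 (81.4%) had no named locus, 0 had an expressed locus, and 3 held any peak of an activation mark. Among windows without H3K9me3, 53.0% had an expressed locus.

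**Figure D4:**
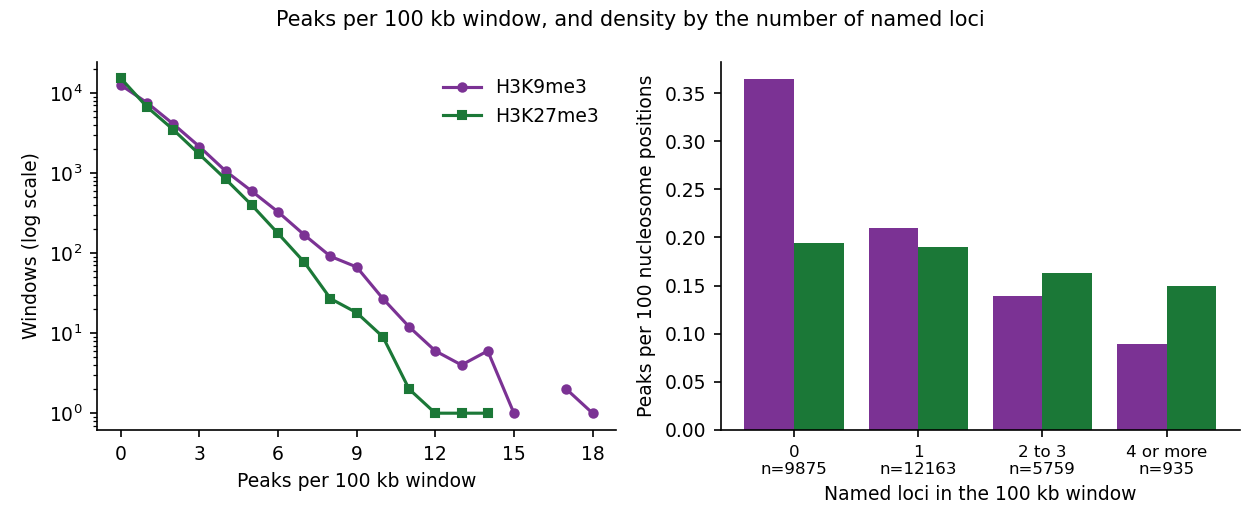
Left, number of 100 kb windows (log scale) by peaks per window, for H3K9me3 and H3K27me3. Right, peaks per 100 nucleosome positions by the number of named loci in the window, with the number of windows (n). H3K9me3 reached 18 peaks in a window, and its rate was highest, at 0.365, in windows without a named locus.

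The window with most peaks lay on chromosome 21 from 15000001 to 15100000, with 18 peaks on 391 positions and the end of POTED as its named locus. Windows on chromosome 4 from 176000001 and on chromosome 15 from 20500001 followed with 17 each, and a window on chromosome 14 from 84800001 had 15. None of these 3 had a named locus. There were 6 windows with 14 peaks, and the first 3 of them by rate lay on chromosome 4 from 132600001 and from 29700001 and on chromosome 8 from 92800001. They were followed by a tie at 489 positions between chromosome 1 from 238600001, where LOC339535 had 0.329 FPKM, and chromosome 10 from 83200001, which had no named locus. The window on chromosome 4 from 132600001 held 297 positions, fewer than the median of 514, and so had the highest rate of these windows, at 4.71 per 100. No activation mark was listed in any of these 9 windows, and H3K27me3 had 2 peaks in the first and 1 each in 2 others. The rate was higher still in some windows with few mapped positions, such as 27.5 per 100 on chromosome 16 from 33200001, with 11 peaks on 40 positions.

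Chromosomes differed up to 8.53-fold. Chromosome 21 had the highest rate, 0.531 peaks per 100 positions (0.497 to 0.566), followed by chromosome 4 at 0.312, and chromosome 20 had the lowest, 0.0622 (0.054 to 0.0713). On chromosome 21 H3K27me3 was not raised, at 0.138, and on chromosome 20 it was also the lowest of the autosomes, at 0.058. H3K4me3 on chromosome 20 was 0.776 per 100 positions, above the 0.603 of all windows. Chromosome 21 was uneven along its length: from 20 to 25 Mb, where 2 named loci start, it had 1.17 peaks per 100 positions, and from 40 Mb to its end, where 83 start, it had 0.147. Across the 22 autosomes Spearman's rho of the H3K9me3 rate was 0.63 with the H3K27me3 rate and -0.59 with the density of named loci, given as descriptions of 1 library each.

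**Figure D5:**
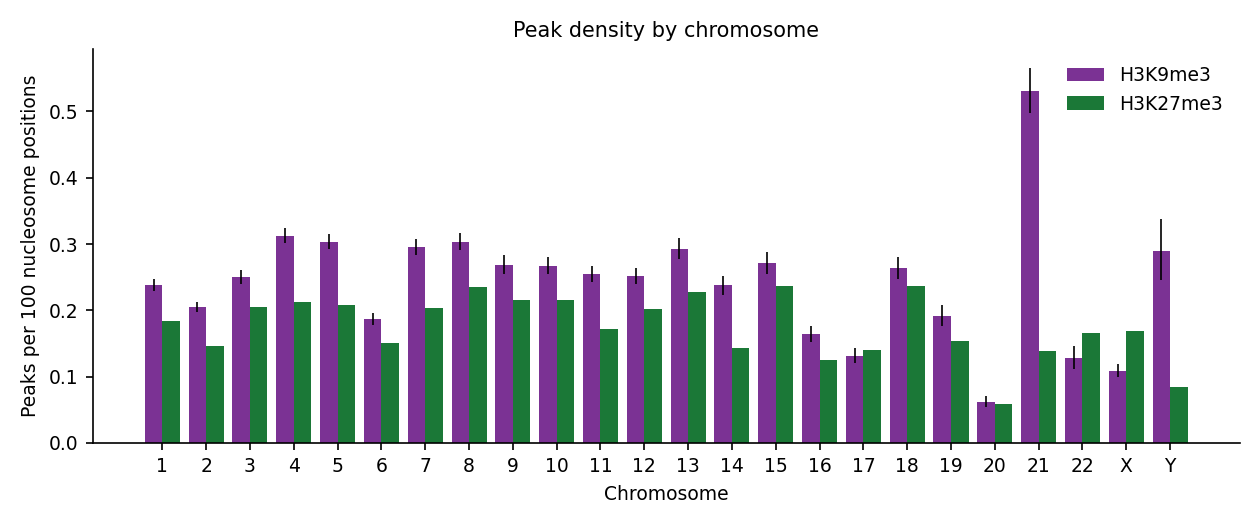
Peaks per 100 nucleosome positions (vertical axis) on each chromosome for H3K9me3, with exact 95% intervals, and for H3K27me3, drawn without intervals. Chromosome 21 stands above the others for H3K9me3 alone, and chromosome 20 is lowest for both marks.

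At the scale of single nucleosomes most peaks stood alone, although marked neighbours were more frequent than the mark itself. The next position in map order was also marked for 7.66% of H3K9me3 positions (7.38 to 7.95), whereas 0.243% of all positions were marked. The 7.66% was close to the 7.99% (7.66 to 8.32) of H3K27me3 and far from the 72.3% of H3K4me3. Of all peaks 85.6% had no marked neighbour on either side, the median distance to the next peak was 37.0 kb, and the longest run was 5 positions. There were 7 runs of that length. One lay in GPC5, a glypican gene with 0.0722 and 0.112 FPKM, and another in SDR42E1, a gene of the short-chain dehydrogenase family, where it covered 660 bp, with midpoints from 2083 to 2603 bp inside the gene. The other 5 overlapped no named locus.

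Allowing gaps of up to 5 kb joined the peaks into 28636 stretches, of which 24126 were single peaks and 74 held 5 or more. The largest, on chromosome 15, had 11 marked positions of 21 over 3835 bp (chr15:20508532-20512366) and overlapped no named locus. Among named loci, HRNR, a gene of the skin barrier, had a stretch of 7 marked of 15 positions over 4995 bp, and FAM190A 7 of 31 over 5490 bp. HRNR had 9 peaks in all on 404 positions with 0.0151 and 0.00884 FPKM, and FAM190A 28 on 7145 with 0 and 0.0139 FPKM. None of the 12 largest stretches carried a peak of another mark.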

How the data were processed

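HepG2 was assayed with 1 library per assay, and nothing was pooled. The authors used DANPOS for the nucleosome map and NUCLIZE to call the marks on it against input, and deposited coordinates with an identifier but no score (BWA and hg19 per the submitters' processing notes). The authors deposited expression as FPKM in 2 columns of a single sample, in the layout of Cuffdiff. Their processing notes name TopHat2 2.1.0, Bowtie and HOMER 4.7 among the tools for RNA-Seq. The columns of the authors' own comparison (fold changes, p-values and q-values) were not used.

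Named loci were the rows with a symbol on chromosomes 1 to 22, X and Y. Rows of equal coordinates were joined and given the FPKM of the row with the highest mean of both runs. Of loci led by the same symbol, the longest was kept with its own FPKM. A peak belonged to a locus or window if its midpoint did. Rates over several loci sum the counts of each locus, so peaks and positions in overlapping flanks count more than once. Strand came from the order of locus numbering, which gave the RefSeq strand for 8711 of 8751 loci (99.5%). Named are the 10 loci with most peaks, the 10 with most peaks per 100 positions among those with at least 50, the 8 most expressed with at least 10 peaks, the 3 with most peaks in each gene list, and the 8 windows with most peaks. Other names were chosen after their values were seen. The members, the gene lists and the rules were chosen with earlier results of these data known. Counting steps were tested on simulated data. The depth of each library is unknown, since no read counts are given. Python 3.11.15, numpy, pandas, scipy and matplotlib were used. Alternatives were other flanks, overlap by any base, every row kept, autosomes only, other windows and limits, and other sources of strand.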

Additional observations from a re-analysis of the deposited data

How the results depend on the processing

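No paired analysis was possible because there is 1 library per assay. Of 38 alternative values, 21 stayed within the interval of the reported value and 17 did not. The share of named loci with at least 1 peak (30.1%) was 23.1% with no flank, 37.4% with flanks of 20 kb, 31.9% with every named row kept and 28.5% for loci holding 1 row, an alternative added after the data were seen. The share of peaks near a named locus (35.8%) was 30.4% with no flank and 40.6% with 20 kb. The densest 1% of windows held 7.23% of peaks, 9.14% with windows of 50 kb, 5.27% with 500 kb and 6.86% when ranked by peaks per 100 positions. The share of zinc finger loci with at least 5 peaks (2.52%) was 4.65% with flanks of 20 kb, where that of all named loci was 3.85%. At least 2 peaks per 100 positions were present at 2 of 516 zinc finger loci (0.388%) and at 98 of 17342 named loci. The share of loci with at least 5 peaks that were expressed (34.5%) was 28.2% with every row kept, 7.14% at 2 or more peaks per 100 positions, 20% at 10 or more peaks, 47.6% at a limit of 0.1 FPKM, 25.4% at 5 FPKM and 23.3% for loci holding 1 row. Over all named loci the corresponding shares were 64.4% at 0.1 FPKM, 42.9% at 5 FPKM and 48.5% for loci holding 1 row, so loci with at least 5 peaks were less often expressed than all loci under each of these 3 settings. The share of marked neighbours and the share of zinc finger peaks downstream of the middle stayed within their intervals. With no replicates, heights or read counts, neither the error between cultures nor a stricter calling limit could be examined, and a position without a peak may carry the mark below the limit of the caller.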

Other observations

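Loci of the expression table without a gene symbol also carried the mark. Of 5478 such loci with coordinates of their own, 904 had at least 1 H3K9me3 peak in their span and flanks (16.5%, 15.5 to 17.5). The share was 30.1% in all named loci and 17.45% in silent named loci under 20 kb. Per 100 positions the loci without a symbol had 0.192 peaks and those silent named loci 0.19. At least 5 peaks were present in 34 of the 5478 loci and in 3.25% of all named loci. The loci without a symbol were short, with a median span of 1.36 kb, and weakly expressed, with a median of 0.0384 FPKM. Among those with at least 3 peaks, the most expressed lay on chromosome 4 from 90602493 to 90641452, with 3 peaks on 295 positions and 18.96 and 20.4 FPKM. The next, on chromosome 1 from 143134241 to 143196565, had 3 peaks on 361 positions and 11.5 and 12.7 FPKM. A locus of 666 kb on chromosome 11 had 10 peaks with 1.81 and 5.52 FPKM, values that differ widely between the runs. These loci were chosen after their values were seen.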
